A study of Mus musculus with 4 samples.

Results

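The genes of cell adhesion to laminin-rich matrix were examined in bulk RNA-Seq of nasal process (NP) tissues, the paired swellings around the nasal pits that build the midface, from mouse embryos at E11.5. They comprise the integrin α and β subunits, the laminin chains, the 4 syndecans, and the linkers and receptors *Nid1*, *Nid2*, *Hspg2*, *Agrn* and *Dag1*. They were matched by gene symbol, and 37 of the 13577 genes in the table matched. The set was chosen with earlier results of these data known. The other 8 of the 45 family genes in a hand-written list of roles (*Itga2*, *Itga7*, *Itga11*, *Itgax*, *Itgb7*, *Lama3*, *Lamb3* and *Lamc3*) were not analyzed here.

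There were 4 libraries, 2 titled control and 2 titled ca-*Acvr1* mutant. Control embryos carry *P0-Cre* without the floxed transgene (ca-*Acvr1(A11)*+/+), and mutant embryos carry *P0-Cre* with ca-*Acvr1(A11)* fl/+, a constitutively active form of the BMP type I receptor ACVR1 driven by the CAG promoter in a single transgenic line, A11. All embryos of both groups thus carry *P0-Cre*, which recombines in cells of the neural crest lineage. The mice were of mixed background, embryos were matched by somite number, and the number of embryos behind each library is not given in the sources used here. A legend in the study's supplement gives a number of samples for this RNA-Seq that is not the number of libraries per group analyzed here. Nothing states that the replicates came from separate embryos or litters, so the p-values below measure the spread between these libraries, which may be technical.

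The genotype entries of the sample records are the reverse of the titles. The titles were used, and every direction below would turn round if the genotype entries were right. *Acvr1* itself was at 21.5 and 23.1 CPM (read counts scaled to the library total) in controls versus 24.1 and 12.6 CPM in mutants (limma log2 fold change −0.33 ± 0.28 SE, adjusted p = 0.786). *Pdgfra*, a receptor gene of this mesenchyme, was at 85.3 and 114 CPM in the libraries titled control and at 13.2 and 17.9 CPM in those titled mutant, but these last values are not whole numbers of reads. *Thbs1*, whose values are whole, was also lower in the libraries titled mutant (given with the ligands). The study reports reduced *Thbs1* in the mutants from the RNA-Seq it deposited, so that this report is not separate from the values here. It reports reduced *Pdgfra* by qRT-PCR, and less of the protein by Western blot and immunostaining, in the direction under the titles. The study also reports more *Acvr1* mRNA in mutant NP by in situ hybridization. Whether reads of the transgene are counted under *Acvr1* here was not tested. No group was assigned from such values. The libraries held from 1956831 to 2408827 reads, so that 1 read was worth 0.415 to 0.511 CPM, and the 37 genes took 2406 to 3156 reads of a library. There were 43 values that were not whole numbers of reads, 11 in control and 32 in mutant libraries. They fell on 22 genes, among them *Pdgfra*, *Pdgfrb*, *Slc2a1*, *Hk2*, *Aldoa*, *Pkm* and *Shh* (named after their values were seen), and 0 of the 37 genes. How these values were made is not given in the sources used here. The tissue was checked by its markers. All 17 markers of cranial mesenchyme and 23 of 25 markers of epithelium were listed, whereas the summed level of the 4 listed muscle markers was 7.99 to 9.83 CPM. Being listed means only that a gene has values in the table. Other tissues were present as well, with sums of 1656 to 2378 CPM for neural and 6707 to 8488 CPM for erythroid markers. The epithelium markers summed to 345 to 565 CPM.

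Integrins are receptors of 1 α and 1 β subunit that span the plasma membrane and tie the cytoskeleton to the matrix outside. Laminins are cross-shaped trimers of an α, a β and a γ chain and form the sheet of the basement membrane, which nidogens, perlecan and agrin link to collagen IV and to the cell. Dystroglycan is a second receptor for laminin, and syndecans are membrane proteoglycans whose heparan sulfate chains bind matrix and growth factors. In the face the basement membrane lies between ectoderm and crest-derived mesenchyme, and it also surrounds vessels, muscle and nerve.

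The laminin α2 chain gene *Lama2* was lower in mutant libraries, and it was the only one of these genes to change at an adjusted p under 0.05. Its level was 10.2 and 10.2 CPM in the control libraries and 0.415 and 0.936 CPM in the mutant libraries, which rests on 20, 23, 1 and 2 reads. The groups lay far apart, while the control libraries differed by little. On the scale of log2(CPM + 1), where differences of genes with few reads come out too small, limma gave a log2 fold change of −2.76 ± 0.43 SE and an adjusted p of 0.000500. In reads pooled over each group (43 against 3) the level in control was 15.5 times that in mutant libraries, with an exact 95% interval from 4.95 to 78.0 that covers counting error only. DESeq2 gave an adjusted p of 0.0791 and did not call it, and with a minimum of 10 reads in every library the gene was not tested. *Lama2* passed the filter on low values, a mean above 1 CPM, through the control libraries only. At 1 and 2 reads its spread in the mutant libraries is hardly measured, and the p from limma rests largely on the spread pooled over all genes.

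*Lama2* encodes the chain of laminin-211, the laminin of the basement membranes of muscle and peripheral nerve, and loss of it causes a congenital muscular dystrophy. It lies on chromosome 10 of GRCm38 from 26980036 to 27619758 on the minus strand in GENCODE's annotation. A library primed at the poly(A) tail collects most reads near the 3′ end of a transcript. The last exon of the principal transcript runs from 26981285 to 26981652, short of the gene's own 3′ end at 26980036. Another gene, *Gm48084*, overlaps this exon in the annotation. The strand setting used in counting is not given in the sources used here. The promoter of *Lama2* is shown because it was the only called gene of the set. It is RefSeq's window of 300 bases on GRCm38.p6, from 250 bases before the start to 50 after it, at chr10:27616893-27617192 on the minus strand. This window lies inside the gene as GENCODE gives it, whose 5′ end is at 27619758, so that RefSeq's start is not that end. Capitals mark the SMAD box:

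Lama2 promoter: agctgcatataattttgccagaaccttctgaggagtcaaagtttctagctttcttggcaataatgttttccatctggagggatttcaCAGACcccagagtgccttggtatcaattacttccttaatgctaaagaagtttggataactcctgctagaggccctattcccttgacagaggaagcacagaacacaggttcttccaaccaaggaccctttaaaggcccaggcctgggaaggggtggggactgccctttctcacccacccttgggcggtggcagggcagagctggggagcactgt

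The searches covered both strands. The first motif was GTCTG, the short element known to bind SMAD proteins, which the other strand shows as CAGAC. The second was GGCGCC, a GC-rich element of SMAD1 and SMAD5 that is its own reverse complement. GTCTG occurred in 49.6% and GGCGCC in 11.9% of the 32851 windows of this length. Windows were found for 25 of the 37 genes, 29 windows in all, of which 15 held GTCTG and 7 held GGCGCC. The window of *Lama2* held GTCTG at 1 place and no GGCGCC. Such a match describes the sequence and is not evidence of a bound site.

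None of the other 3 laminin α chains analyzed was called. *Lama1*, a chain of early and epithelial basement membranes, was at 15.8 and 15.5 CPM in controls versus 15.8 and 18.7 CPM in mutants. *Lama4*, the chain of vessels and mesenchyme, was at 20.4 and 18.2 CPM against 19.5 and 21.1 CPM. Both genes overlapped between the groups. *Lama5*, the main α chain under ectoderm, was at 9.71 and 12.4 CPM in controls versus 14.9 and 16.4 CPM in mutants, without overlap but also without a call. Of all reads on laminin α chains, *Lama2* held 18.2% (exact 95% binomial interval 11.47% to 26.7%) and 18.1% (11.8% to 25.9%) in the control libraries. It held 0.820% (0.0207% to 4.48%) and 1.64% (0.199% to 5.80%) in the mutant libraries. These intervals cover counting error only and not the spread between libraries. They rest on the same reads for which *Lama2* was called, so that their lying apart between the groups is no separate support. With 2 libraries against 2, an exact permutation test of a single such value cannot go below p = 0.333, and none was run.

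**Figure D1:**
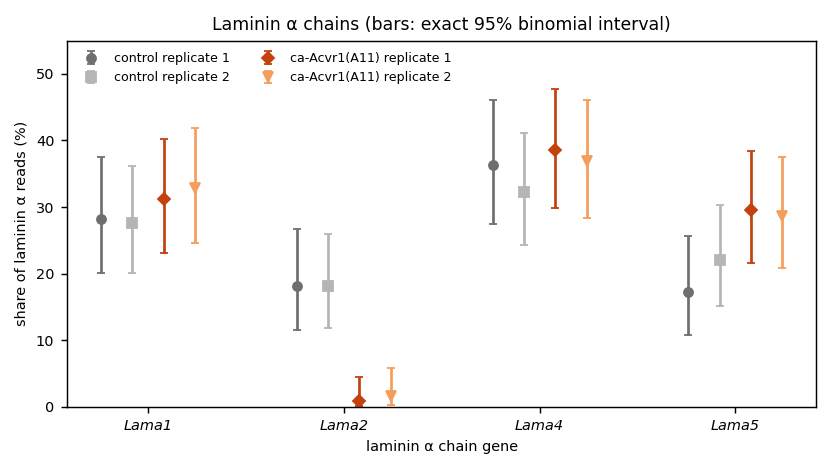
Share of each laminin α chain gene in the laminin α reads of a library, in percent, with exact 95% binomial intervals that cover counting error only. *Lama2* held 18.2% and 18.1% in the control libraries and 0.820% and 1.64% in the mutant libraries, and the intervals of the other 3 chains overlapped between the groups.

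The laminin β and γ chains, which every laminin trimer needs, gave no call. *Lamb1* had the highest level of the laminin genes, 126 and 132 CPM in controls versus 130 and 150.2 CPM in mutants (limma log2 fold change 0.12 ± 0.15 SE, adjusted p = 0.879). *Lamc1*, the γ chain of most laminins, was at 22.5 and 38.2 CPM against 36.5 and 37.9 CPM (limma log2 fold change 0.33 ± 0.23 SE, adjusted p = 0.716). Only control replicate 1 was low, and without it the fold change of *Lamc1* was −0.04. *Lamb2*, found in synaptic and vascular laminins, was at 16.9 and 15.1 CPM in controls versus 16.2 and 30.9 CPM in mutants, where replicate 2 stood alone. Levels of different genes are set side by side in CPM without division by length, since a 3′ library gives about 1 read per captured transcript whatever its length.

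*Lama2* was low in the libraries in which the markers of cranial mesenchyme were low as well. The summed level of the 17 markers was 3169 and 3685 CPM in controls versus 2269 and 2270 CPM in mutants, 12 of the 17 were called lower and 0 higher by limma, and their median log2 fold change was −0.94. *Vim*, the only 1 of the 17 with a fold change above 0, was at 760 and 768 CPM in controls versus 924 and 867 CPM in mutants. It held a large part of the sum, which therefore fell by less than most of the markers. Without *Pdgfra*, whose mutant values were not whole, the sums were 3084 and 3571 CPM versus 2256 and 2252 CPM, and 11 of 16 were called lower. In tissue RNA, fewer cells of a type and less RNA per cell cannot be told apart. *Lama2* was also scaled to these markers, a choice made after the values had been seen. Per 1000 CPM of all 17 markers it was at 3.23 and 2.77 CPM in controls versus 0.183 and 0.412 CPM in mutants. *Lama2* fell by a far larger proportion than the marker sum, so the groups had to stay apart on this scale. These values are therefore a description only. The summed muscle markers were 9.20 and 7.99 CPM against 8.72 and 9.83 CPM. Of the 6 markers of glial precursors 4 were listed and 0 were called, with sums of 89.4 and 135 CPM versus 95.1 and 130.1 CPM, of which *Fabp7* held the greater part. The other 3 summed to 20.4 and 22.6 CPM versus 11.6 and 8.42 CPM, and 3 of the 4 had a fold change below 0 (median −0.82). *Sox10*, the factor that defines these cells, was at 9.71 and 7.99 CPM in controls versus 2.08 and 3.28 CPM in mutants (limma log2 fold change −1.44 ± 0.39 SE, adjusted p = 0.0926), and the part of these cells, or of the mesenchyme, in the level of *Lama2* was not tested.

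Over the whole set, 33 of the 37 genes had a mean above 1 CPM and were tested, and the other 4 (*Itga10*, *Itgae*, *Itgal* and *Itgam*) were not. Of the 33, 3 passed this filter through 1 group only, *Lama2* and *Itgb2* through control and *Itgb4* through mutant libraries. At an adjusted p under 0.05 from limma, 1 gene was lower (3.03%) and 0 were higher, beside 0.594% lower and 0.305% higher among all 12462 genes tested. At an unadjusted p under 0.05 from limma, 4 were higher (*Itga6*, *Itga3*, *Agrn* and *Dag1*) and 3 lower (*Lama2*, *Sdc3* and *Itgb5*), or 12.1% and 9.09%, where 5.42% and 4.12% of all genes tested lay. edgeR's quasi-likelihood test, which covered 23 of the genes, gave 3 higher and 3 lower at an unadjusted p under 0.05, and it called *Lama2* after adjustment and no other. The groups did not overlap for 8 genes that were higher and 6 that were lower (24.2% and 18.2%), close to the 21.9% and 16.8% of all genes tested. Fold changes were above 0 for 22 and below 0 for 11 of the genes, with a median of 0.26 beside 0.03 for all genes tested. The median of the set was 0.03 without mutant replicate 2 and 0.10 without control replicate 1. The fold change of *Lama2* was the lowest of all genes tested on this scale, and by p it ranked 20.

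**Figure D2:**
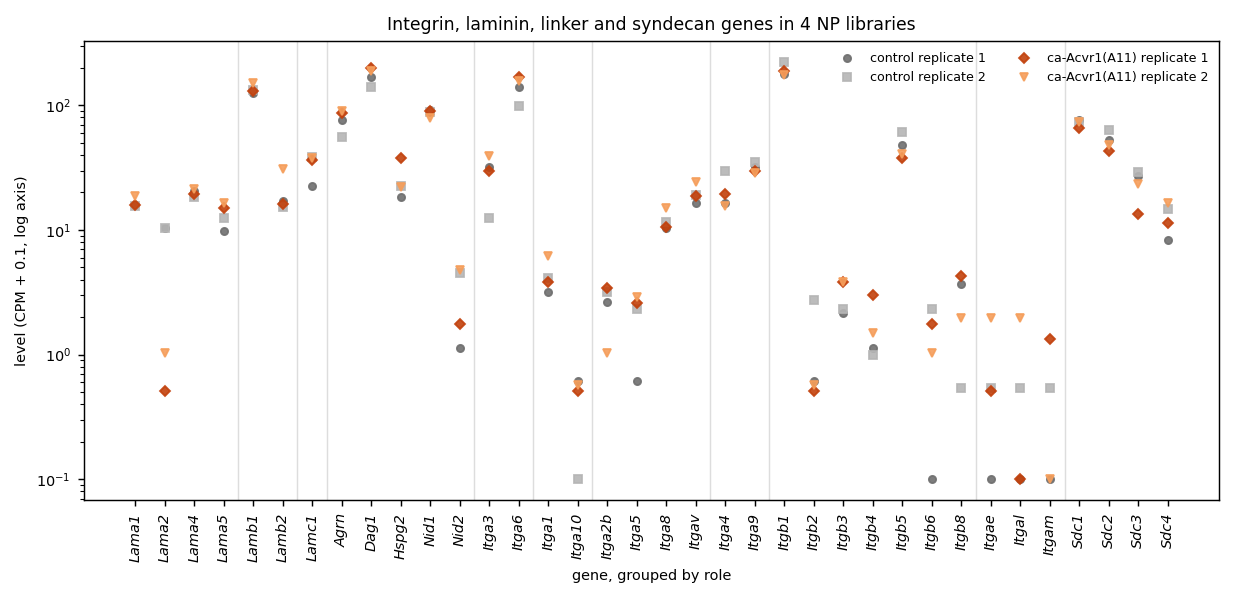
Level of 36 of the 37 genes in each library, in CPM with 0.1 added on a log axis, grouped by role. *Lama2* stands apart with 10.2 CPM in both control libraries and 0.415 and 0.936 CPM in the mutant libraries, while genes such as *Lama4*, *Nid1* and *Sdc1* lay close together in all 4.

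None of the linkers of laminin to the cell and to collagen IV was called. *Dag1*, which encodes both subunits of dystroglycan, was at 170.2 and 141 CPM in controls versus 198 and 187 CPM in mutants (limma log2 fold change 0.31 ± 0.15 SE, adjusted p = 0.494). *Agrn* encodes agrin, a heparan sulfate proteoglycan that binds laminin and dystroglycan, and was at 76.7 and 55.9 CPM against 85.9 and 89.4 CPM (limma log2 fold change 0.41 ± 0.17 SE, adjusted p = 0.424). In *Dag1* and *Agrn* both mutant libraries lay above both control libraries. Without control replicate 2 the log2 fold changes were 0.18 for *Dag1* and 0.19 for *Agrn*. *Hspg2*, the gene of perlecan, was at 18.4 and 22.6 CPM in controls versus 37.8 and 22.0 CPM in mutants, where replicate 1 was high. *Nid1*, which bridges the laminin γ1 chain and collagen IV, was at 92.5 and 88.8 CPM against 89.7 and 79.1 CPM, within the spread of the libraries.

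The subunits *Itga3*, *Itga6* and *Itgb4*, taken here as epithelial, belong to integrins that bind laminin. Of them *Itga6*, the α chain of α6β1 and of α6β4, was the most abundant, at 139 and 98.6 CPM in controls versus 168 and 156 CPM in mutants (limma log2 fold change 0.46 ± 0.16 SE, adjusted p = 0.275). *Itga3*, whose product binds laminin-332 and laminin-511, was at 32.2 and 12.4 CPM against 29.9 and 38.8 CPM, so that control replicate 1 lay among the mutant libraries and control replicate 2 well below (limma log2 fold change 0.73 ± 0.29 SE, adjusted p = 0.379). Without control replicate 1 the fold changes of *Itga6* and *Itga3* were 0.71 and 1.39 and both were called, as was *Agrn*, and without control replicate 2 they were 0.22 and 0.08. *Itgb4*, the β chain of hemidesmosomes, was at 1.02 and 0.888 CPM in controls versus 2.91 and 1.40 CPM in mutants (limma log2 fold change 0.65 ± 0.51 SE, adjusted p = 0.767). These values rest on 2, 2, 7 and 3 reads, and the ratio of the pooled reads was 2.31 with an exact 95% interval from 0.668 to 10.1, so that a difference was not detectable at this depth. The α6 chain thus had far more transcripts than the β4 chain in all 4 libraries.

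The markers of epithelium were higher in the same libraries. The summed level of the 23 markers listed was 366 and 345 CPM in controls versus 565 and 531 CPM in mutants. Of the 23, limma called 3 higher (*Cdh1*, *Epcam* and *Perp*) and 0 lower, and 19 had a fold change above 0. In the scaling to marker levels, chosen after the values had been seen, the sum of *Itga3*, *Itga6* and *Itgb4* per 1000 CPM of epithelium markers was 471 and 324 CPM in controls versus 355 and 370 CPM in mutants. On this scale the mutant libraries lay between the control libraries. For *Itga6* alone the values were 380, 285, 297 and 294 CPM in the same order. Neural markers were higher in the mutant libraries as well, with fold changes above 0 for 12 of 12, a median of 0.43, 1 called (*Six3*, adjusted p = 0.0278 from limma) and sums of 1933 and 1656 CPM versus 2366 and 2378 CPM. The part of epithelium or neural tissue in the levels of *Itga6*, *Itga3*, *Agrn* and *Dag1* was not tested.

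None of the integrin subunits of mesenchyme, nor the shared β1 chain, was called. *Itgb5*, which joins αv in a receptor for vitronectin, was at 47.5 and 60.8 CPM in controls versus 37.8 and 40.2 CPM in mutants, without overlap (limma log2 fold change −0.45 ± 0.19 SE, adjusted p = 0.432). *Itgav*, its partner, was at 16.4 and 19.1 CPM against 18.7 and 24.3 CPM and overlapped. *Itga4*, an α chain that binds fibronectin and VCAM1, was at 16.4 and 29.7 CPM in controls versus 19.5 and 15.4 CPM in mutants. *Itga9*, which binds tenascin C, was at 31.7 and 35.1 CPM against 29.9 and 28.5 CPM, a narrow separation. *Itga8*, the receptor chain for nephronectin, was at 10.2 and 11.54 CPM against 10.4 and 15.0 CPM, and *Itga1*, which binds collagen, was at 3.07 and 3.995 CPM against 3.74 and 6.08 CPM. Both overlapped. *Itgb1*, the β chain shared by most of these receptors, had the highest mean of all 37 genes, at 177 and 224 CPM in controls versus 188 and 175 CPM in mutants (limma log2 fold change −0.14 ± 0.15 SE, adjusted p = 0.851).

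The epithelial subunits were set against the mesenchymal ones by their sums. *Itga3*, *Itga6* and *Itgb4* together were at 172 and 112 CPM in controls versus 201 and 197 CPM in mutants. The 7 listed subunits of a hand-written mesenchymal group (*Itga1*, *Itga4*, *Itga5*, *Itga8*, *Itga9*, *Itgav* and *Itgb5*) were at 126 and 162 CPM against 122 and 132 CPM. The log2 ratio of the sums was 0.45 and −0.54 in the control libraries and 0.71 and 0.57 in the mutant libraries, with means of −0.04 ± 0.70 and 0.64 ± 0.10 (SD, n = 2 each). The difference of 0.68 was smaller than the SD of the control group. Leaving out control replicate 1 gave 1.18 and leaving out control replicate 2 gave 0.19, and no test was run on this score.

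**Figure D3:**
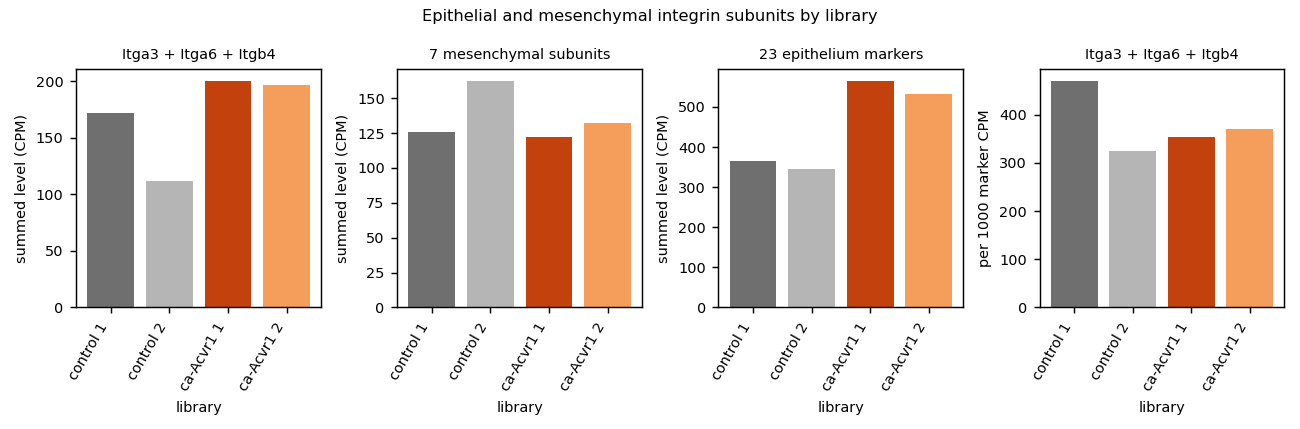
Bars give, for each library, the summed CPM of the epithelial subunits, of the 7 mesenchymal subunits and of the 23 epithelium markers, and at the right the epithelial subunits per 1000 CPM of those markers. The epithelial sum was lowest in control replicate 2 at 112 CPM, and on the marker scale the mutant libraries (355 and 370 CPM) lay between the control libraries (471 and 324 CPM).

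Among the syndecans, *Sdc3*, the syndecan of neural tissue and limb and facial mesenchyme, had the largest difference. It was at 27.1 and 28.9 CPM in controls versus 13.3 and 23.4 CPM in mutants, and the low value of replicate 1 carried much of it (limma log2 fold change −0.63 ± 0.26 SE, adjusted p = 0.406). Without that library it was −0.25. *Sdc2*, the syndecan of mesenchyme, was at 52.6 and 63.5 CPM against 43.2 and 48.2 CPM, without overlap and without a call. *Sdc1*, the main syndecan of epithelium, was at 75.6 and 72.8 CPM against 65.6 and 73.9 CPM. *Sdc4*, which is found in focal adhesions of many cells, was at 8.18 and 14.6 CPM against 11.2 and 16.4 CPM. Per 1000 CPM of mesenchyme markers, a post hoc scale, *Sdc2* lay higher in mutant libraries, at 16.6 and 17.2 CPM in control against 19.0 and 21.2 CPM. *Itgb5* did so by a narrow margin, at 15.0 and 16.5 CPM against 16.65 and 17.7 CPM. *Itga9* also turned round on that scale, at 9.998 and 9.52 CPM against 13.2 and 12.6 CPM. The marker sum itself was lower in mutant libraries (3169 and 3685 CPM against 2269 and 2270 CPM). A gene that fell by a smaller proportion than this sum must come out higher on that scale. These reversals therefore show only a smaller fall than that of the markers, and the share of all genes that turn round was not tested. *Sdc3* overlapped on that scale, at 8.55 and 7.83 CPM against 5.85 and 10.3 CPM. Other genes overlap the last exons of *Sdc3* (*Gm26716*), *Itga9* (*Gm2415*), *Itga4* (*Cerkl*) and *Nid2* (*Rtraf*), so that reads of these 4 could be shared.

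The remaining 12 genes had a mean under 3 CPM and between 0 and 10 reads in any library. The 8 of them that were tested include *Itga5*, the α chain of the fibronectin receptor, *Itgb3*, *Itgb6* and *Itgb8*, partners of αv, *Itga2b* of platelets, *Itgb2* of leukocytes and *Nid2*, and 6 of the 8 were higher and 2 lower, none with a call. The leukocyte subunits were near the limit of detection. *Itgb2* had 1 and 6 reads in control and 1 and 1 in mutant libraries, and *Itgal*, *Itgam* and *Itgae* had at most 4 reads in a library. Macrophage markers had a summed level of 69.0 and 66.6 CPM in controls versus 108 and 149 CPM in mutants, and 2 of 13 were called, *Cx3cr1* and *Mrc1*. Platelet markers, with 0 called, summed to 51.1 and 74.1 CPM versus 55.6 and 69.3 CPM. *Lama4* stood beside endothelium markers whose sums overlapped between the groups (263 and 282 CPM against 273 and 257 CPM, 0 of 16 called).

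**Figure D4:**
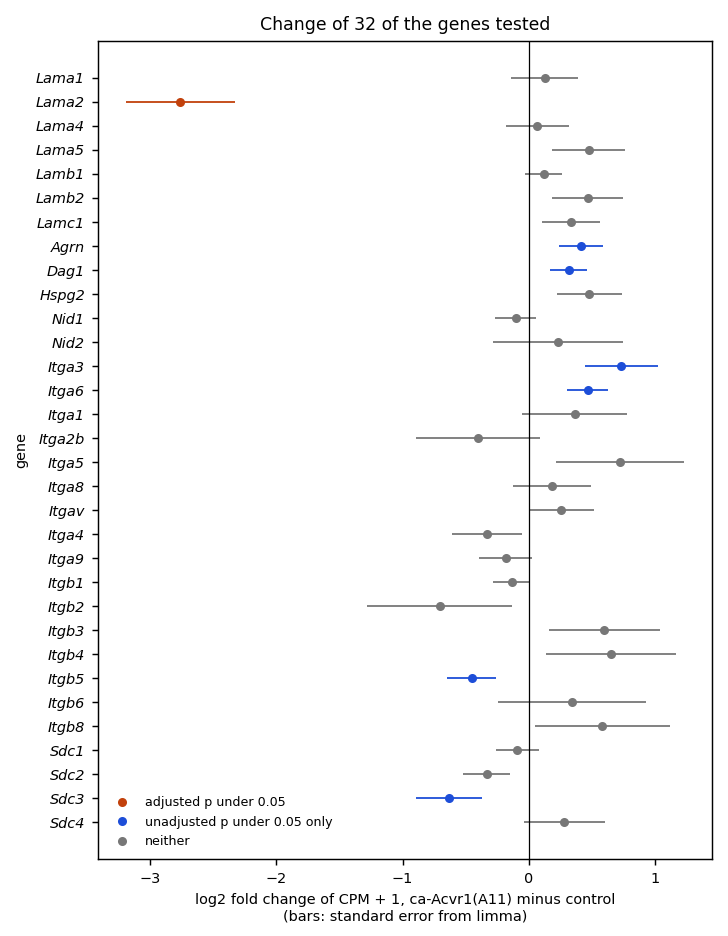
Log2 fold change of CPM + 1 with its standard error from limma for 32 of the 33 genes tested, ca-*Acvr1(A11)* minus control, ordered by role. *Lama2* at −2.76 was the only gene with an adjusted p under 0.05, and 6 more had an unadjusted p under 0.05, all of them within 1 unit of 0.

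The partners of these receptors were taken from 3 hand-written lists. Of the integrin adhesion adaptors inside the cell, such as talins, kindlins, vinculin, paxillin and focal adhesion kinase, 34 were tested and 0 were called by limma (2 higher and 1 lower at an unadjusted p under 0.05), with a median log2 fold change of −0.07. edgeR called 0 of them as well. Of the soluble and interstitial ligands, 17 were tested, with a median of −0.25. Of them 3 were called and all 3 were lower (17.6% of the list, where 0.594% of all genes were called lower). The list was written with earlier results of these data known, so this share is not independent of the data and is given as a description only. *Vcam1*, a ligand of α4 integrins, was at 65.9 and 92.8 CPM in controls versus 30.7 and 51.5 CPM in mutants (limma log2 fold change −0.96 ± 0.21 SE, adjusted p = 0.0203). *Vtn*, vitronectin, the ligand of αv integrins, was at 5.62 and 7.10 CPM against 1.25 and 0.468 CPM, on 11, 16, 3 and 1 reads (limma log2 fold change −2.01 ± 0.46 SE, adjusted p = 0.0247). *Vtn* passed the filter on low values through the control libraries only. In pooled reads its level in control was 7.29 times as high, with an exact 95% interval from 2.54 to 28.7 for counting error. The third was *Thbs1*, thrombospondin 1, at 28.6 and 47.9 CPM against 21.2 and 12.6 CPM (limma log2 fold change −1.13 ± 0.27 SE, adjusted p = 0.0330). Without control replicate 2 limma called 0 genes of the list, and without control replicate 1 it called 4.

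Of the other basement membrane genes, among them collagen IV, collagen XVIII and netrins, 20 were tested and 1 was called by limma, with a median log2 fold change of −0.04. This was *Hmcn1*, hemicentin 1, a large matrix protein of cell junctions and tissue borders. It was at 36.8 and 37.3 CPM in controls versus 17.0 and 17.3 CPM in mutants, with little spread in either group (limma log2 fold change −1.07 ± 0.23 SE, adjusted p = 0.0146). *Hmcn1*, *Vcam1*, *Vtn* and *Thbs1* were lower in the libraries with the lower sum of mesenchyme markers, and the part of that difference in their levels was not tested.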

How the data were processed

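NP tissue RNA of 2 control and 2 mutant libraries, titled as such, was profiled with the QuantSeq 3′ kit. The authors deposited 1 table of CPM values. The submitters' processing notes name STAR, featureCounts 1.6.4, DESeq2 and mm10 without their roles. Library totals (1956831 to 2408827 reads) were recovered from the value of 1 read, and a value within 0.02 reads of a whole number was taken as whole (all but 43 of 54308 values). The 33470 empty lines of the table were dropped, and 0 columns of values were unused.

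Genes averaging more than 1 CPM (12462) were fitted on log2(CPM + 1) by limma 3.58.1 with an intensity trend, and p-values were adjusted over all of them by the Benjamini-Hochberg method (threshold 0.05). edgeR 4.0.16 and DESeq2 1.42.0 and limma-voom were run on the recovered reads without the 22 genes that have other values (R 4.3.3). The 4 fits across genes were tested on simulated data. Intervals were computed in scipy 1.17.1.

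The genes and lists were chosen with earlier results of these data known. A gene was given with its value in each library if its mean was 3 CPM or more, and *Itga3*, *Itga6* and *Itgb4* in any case. Fold changes are printed for genes with an unadjusted p under 0.05 and for *Itga3*, *Itga6*, *Itgb4*, *Itgb1*, *Lamb1* and *Lamc1*. Genes of the lists around them are named if called, at most 3 a list. Positions are from GENCODE M21 (GRCm38, the same assembly as mm10), where all 37 genes were found on the chromosome the table gives. The values of 1 of the 37 genes are not reported here, and it enters the counts only.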

Additional observations from a re-analysis of the deposited data

How the results depend on the processing

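*Lama2* was called in 12 of the 13 alternatives that tested it, with log2 fold changes from −3.97 to −2.53 and adjusted p from 3.37e-07 to 0.0791, the highest from DESeq2. The number of the 37 genes called lower was 0 with DESeq2 and with at least 10 reads in every library, where 22 of them were tested, and 1 in the other settings. The number called higher was 0 to 3 with each library left out in turn, and the 3 appeared without control replicate 1. Among all genes, limma called 38 higher and 74 lower, edgeR 39 and 83, and DESeq2 7 and 25. With each library left out, 31 to 240 genes were higher and 54 to 225 lower, the largest counts without control replicate 1. The replicate numbers are not stated to pair the libraries, and the deviations of same-numbered libraries from their group means correlated with r = 0.07 across genes. A replicate block gave 97 genes higher and 132 lower, and *Lama2* was the only one of the 37 among them. With each library left out, the adaptor list held 0 to 1 called genes, the ligand list 0 to 4, the other basement membrane list 1 to 2, the dystroglycan list 0 to 1 and the heparan sulfate list 0 to 1. The median log2 fold change of the set was 0.0268 to 0.2406, against 0.26 with all libraries. A group reduced to 1 library was assumed to vary like the other. With each library left out the log2 fold change of *Itgb1* ran from −0.31 to 0.0311 and that of *Lamc1* from −0.036 to 0.70, and of the 150 alternatives of the 11 genes given with a fold change 144 kept direction and side of the threshold. A missing adjusted p, that of *Itgb4* with DESeq2, was counted as not called. Of the 11 genes only *Lama2* was called in the main setting, so most of the 144 were genes that stayed uncalled. TMM and RLE scaling left the median of all genes within 0.1 of the main setting. At 1 to 3 reads a level of *Lama2* or *Vtn* cannot be told from a somewhat lower or higher one, and genes under 3 CPM allow no statement on small changes.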

Other observations

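Genes that modify or anchor dystroglycan were also examined. Of the dystroglycan complex and its glycosylation enzymes 16 were tested and 1 was called by limma, with a median log2 fold change of 0.11. This was *Dmd*, dystrophin, which ties dystroglycan to actin inside the cell. It was at 14.8 and 16.4 CPM in controls versus 31.1 and 32.3 CPM in mutants, on 29, 37, 75 and 69 reads, with little spread within a group (limma log2 fold change 0.98 ± 0.24 SE, adjusted p = 0.0411). It was not called when either mutant library was left out, which leaves that group with 1 library whose spread is taken from the others. Of the genes that build heparan sulfate and the glypicans that carry it on the membrane, 22 were tested and limma called 0 (1 higher and 2 lower at an unadjusted p under 0.05), with a median log2 fold change of −0.12, and edgeR also called 0.

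By family, the summed level of the integrin genes was 484 and 511 CPM in controls versus 526 and 516 CPM in mutants, and that of the laminin genes 223 and 244 CPM against 237 and 279 CPM. Of the laminin sum, *Lama2* held 10.2 CPM in each control library.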
